A study of Mus musculus with 4 samples.

Results

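The cells described here were T cells sorted from mouse sarcomas that carried transcripts of both Tyrobp, the gene of the signalling adaptor DAP12, and Fcer1g, the gene of the Fc receptor common gamma chain. They were chosen from single-cell RNA counts by a rule: at least 200 detected genes, at most 20000 UMIs (unique molecular identifiers, each standing for 1 captured RNA molecule) and at most 10% mitochondrial UMIs, at least 1 UMI each of Cd3e, Tyrobp and Fcer1g, no UMI of the macrophage genes C1qa, C1qb, Lyz2 and Apoe, and fewer than 5 UMIs of Gzmb. The rule found 1203 cells among 21342 cells with a Cd3e UMI within the same limits on detected genes, UMIs and mitochondrial share, or 5.64%, out of 32525 deposited barcodes. The limits on the macrophage genes and Gzmb were not applied to these 21342 cells. The values of the 8 genes of the rule therefore chose the cells, and they are given below as a description only.

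The study took unconventional αβ T cells (UTCαβ, T cells that bear an αβ receptor without CD4 or CD8) from sarcomas raised in C57BL/6J mice by the carcinogen 3-MCA. Mice either lacked Csf3r, the gene of the G-CSF receptor on which neutrophil production depends (Csf3r-/-, 2 biological replicates), or carried it (Csf3r+/+, 2 biological replicates), and the ages of these animals were not given in the sources used here. Tumor leukocytes were enriched on CD45, depleted of CD11b, CD4 and CD8 bearing cells and sorted as positive for TCRβ and negative for TCRγδ, and each replicate was captured in 1 channel as a 3′ library. The number after a barcode told the 2 libraries of a genotype apart, and below they are called library 1 and library 2.

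DAP12 and the Fc receptor gamma chain are small membrane proteins whose cytoplasmic tails hold an ITAM, the tyrosine motif through which lymphocyte receptors recruit kinases of the Syk family. In natural killer cells they carry the signal of activating receptors that have no signalling tail of their own: NKp46, the product of Ncr1, pairs with the gamma chain, and activating Ly49 receptors pair with DAP12. Most αβ T cells signal through the CD3 and zeta chains instead, and T cells that also use these adaptors are known among innate-like T cells and intraepithelial lymphocytes.

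The sequences around the start of a gene used to choose the cells and of the receptor gene with the largest increase show the DNA next to which these transcripts start. Both windows run from 250 bases before to 50 bases after the RefSeq start (GRCm38.p6), 5′ to 3′ on the gene's strand, with the RUNX core motif TGTGGT, or its complement ACCACA, in capitals. The sequence of Fcer1g is on the minus strand of chr1:171234300-171234599 and that of Ncr1 on the plus strand of chr7:4337465-4337764.
Fcer1g: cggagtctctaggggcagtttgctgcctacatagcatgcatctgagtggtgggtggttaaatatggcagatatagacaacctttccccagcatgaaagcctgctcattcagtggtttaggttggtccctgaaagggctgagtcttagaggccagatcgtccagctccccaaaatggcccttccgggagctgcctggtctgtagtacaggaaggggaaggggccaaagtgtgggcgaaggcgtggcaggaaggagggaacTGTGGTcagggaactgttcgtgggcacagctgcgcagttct
Ncr1: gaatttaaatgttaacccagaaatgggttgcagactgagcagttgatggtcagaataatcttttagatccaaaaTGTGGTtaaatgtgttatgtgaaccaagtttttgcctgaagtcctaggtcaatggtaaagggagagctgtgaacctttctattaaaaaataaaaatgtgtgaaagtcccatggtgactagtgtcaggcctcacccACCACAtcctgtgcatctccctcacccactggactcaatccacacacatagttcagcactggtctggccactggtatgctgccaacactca
The Fcer1g window held 1 match, which lies after the start, and the Ncr1 window 2 matches before it, searched on both strands. Windows of Xcl1, Cd160, Klra1 and Klrb1a, read in the same way, held a match too, those of Klra7 and Hcst held none, and 16.8% of 32851 RefSeq promoters of the same length held at least 1. The letters GGTGTGA (T-box), AGGAAGT (ETS) and TGANTCA (AP-1) were searched in the same way and were in neither of the 2 windows shown. They stood in 3.98%, 9.35% and 7.81% of all promoters, respectively.

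Depth set the precision of each library. The deposited barcodes held 12483656, 38559291, 18136748 and 23234493 UMIs in Csf3r+/+ library 1, Csf3r+/+ library 2, Csf3r-/- library 1 and Csf3r-/- library 2, an order kept for all lists of 4 values below. The Tyrobp+ Fcer1g+ cells numbered 224, 627, 223 and 129 and held 861551, 2857994, 842934 and 474827 UMIs, with a median of 3613.5, 3886, 3339 and 3291 UMIs per cell. Other Cd3e+ cells were shallower, at a median of 3003, 2943, 2207 and 1970.0 UMIs. The median mitochondrial share was 2.22, 2.58, 2.64 and 2.77% in the chosen cells and 2.26, 2.43, 2.47 and 2.97% in the others. Across libraries, 26 of the chosen barcodes had the same sequence as a barcode of another library, against 980 of all 32525 barcodes.

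The other cells of Csf3r+/+ library 2 stood apart. Of the other Cd3e+ cells, 37.7%, 71.5%, 15.3% and 18.8% held a UMI of a Klra gene, the genes of the Ly49 receptors. Cells were thinned to 1500 UMIs, and the UMIs of part of the genes of the IL-17 (type 3) program were summed. Il17a, Blk, Cxcr6, Tmem176a and Tmem176b were in this sum. The other cells of Csf3r+/+ library 2 carried 1.43 such UMIs per cell, against 7.16, 10.3 and 12.3 in the other 3 libraries. Counts of genes are therefore also given without this library.

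The share of Tyrobp+ Fcer1g+ cells among Cd3e+ cells was higher in both Csf3r+/+ libraries than in either Csf3r-/- library. It was 7.88% (Wilson 95% interval 6.94 to 8.93) and 9.71% (9.01 to 10.5) in Csf3r+/+ and 4.28% (3.76 to 4.86) and 1.89% (1.59 to 2.24) in Csf3r-/-. The intervals cover counting error only. Csf3r+/+ libraries averaged 8.79% ± 1.29 (SD, n = 2) against 3.08% ± 1.69 (SD, n = 2), 2.85 times higher, and the difference of -5.71 points had p = 0.333 in a two-sided exact permutation test over libraries, the smallest p that 2 against 2 allows. After every cell was thinned to 1500 UMIs the shares were 6.19%, 4.86%, 3.01% and 1.33%, so the genotypes still did not overlap. Without the limits on macrophage transcripts and Gzmb they were 14.7%, 14.7%, 6.29% and 4.32%, again without overlap. A share cannot tell apart more of these cells from fewer of the others.

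**Figure D1:**
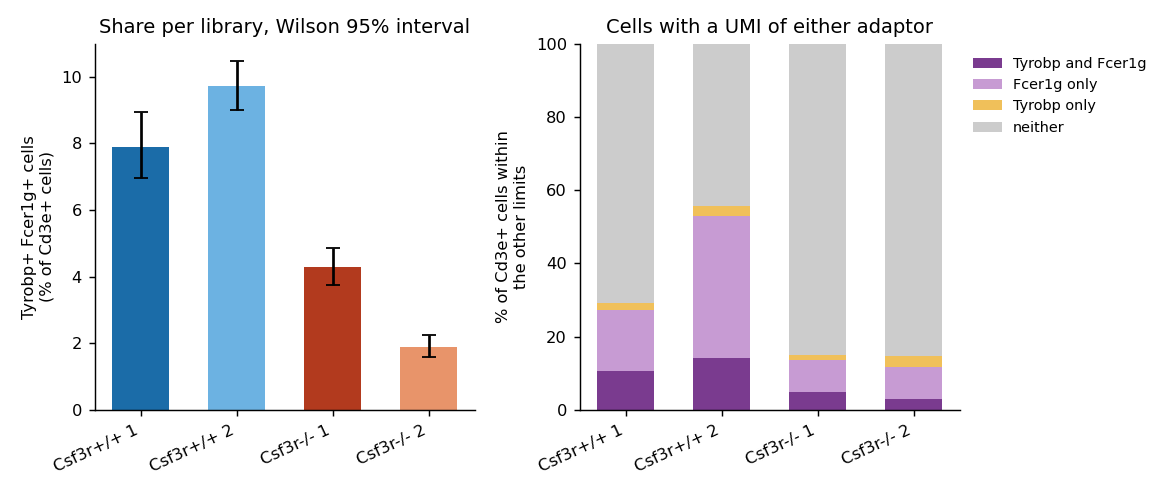
Left, share of Tyrobp+ Fcer1g+ cells among Cd3e+ cells (percent, y axis) in each of the 4 libraries (x axis), with Wilson 95% intervals that cover counting error only; right, percent of Cd3e+ cells within the limits on the other rule genes that held a UMI of both adaptors, of 1 or of neither. Both Csf3r+/+ libraries, at 7.88% and 9.71%, lie above both Csf3r-/- libraries, at 4.28% and 1.89%.

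Tyrobp and Fcer1g, the genes that chose the cells, were read at similar levels in the 4 libraries. Levels are given in CPM, the UMIs of a gene scaled to 1000000 UMIs of the summed cells, and in the chosen cells Tyrobp (chr7:30413760-30417585, plus strand, GRCm38) stood at 756, 496, 756 and 678 CPM and Fcer1g (chr1:171229572-171234365, minus strand) at 1598, 973, 1179 and 1226 CPM. Hcst, the gene of the adaptor DAP10, lies next to Tyrobp on the opposite strand (chr7:30417712-30419854) and was not part of the rule. It stood at 717, 609.5, 833 and 762 CPM in the chosen cells and 648, 625, 719 and 794 CPM in the others, a log2 difference of 0.16 ± 0.08 (SE; adjusted p = 0.366, edgeR's quasi-likelihood test, p-values adjusted by Benjamini-Hochberg). The groups overlapped, and DAP10, which serves the receptor NKG2D, was thus read in both.

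Among Cd3e+ cells within the same limits on the other rule genes, with all UMIs, 2874 held Fcer1g without Tyrobp, 351 held Tyrobp without Fcer1g, and 11040 held neither.

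The limits of the rule removed 386 cells with both adaptors because of a macrophage transcript and 401 more because of 5 or more Gzmb UMIs, out of 1990 cells. The macrophage limit removed 29, 176, 44 and 137 cells and the Gzmb limit 164, 147, 61 and 29 of the 417, 950, 328 and 295 in the 4 libraries, so that the largest share lost to the macrophage limit was in Csf3r-/- library 2 and to the Gzmb limit in Csf3r+/+ library 1. Cells just outside and just inside the UMI thresholds are described here by the levels of 3 genes. Ncr1 averaged 1.21 CPM in cells with neither adaptor, 9.97 with Tyrobp alone, 25.4 with Fcer1g alone, 24.0 in the 104 chosen cells with 1 UMI of each and 151 in the 576 with at least 2 of each. Klra7, the gene of the receptor Ly49G, averaged 83.3, 280.1, 583, 463 and 1046 CPM in the same order. Both genes were lowest with neither adaptor and highest with at least 2 UMIs of each, whereas cells with 1 UMI of each lay near or below those with Fcer1g alone. Hcst stood at 688, 659.7, 756, 668 and 715 CPM. Cells excluded for Gzmb averaged 147 CPM of Ncr1 and 898 CPM of Klra7, near the chosen cells with at least 2 UMIs of each adaptor. Depth was not matched between these classes, and its part in these levels was not tested.

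**Figure D2:**
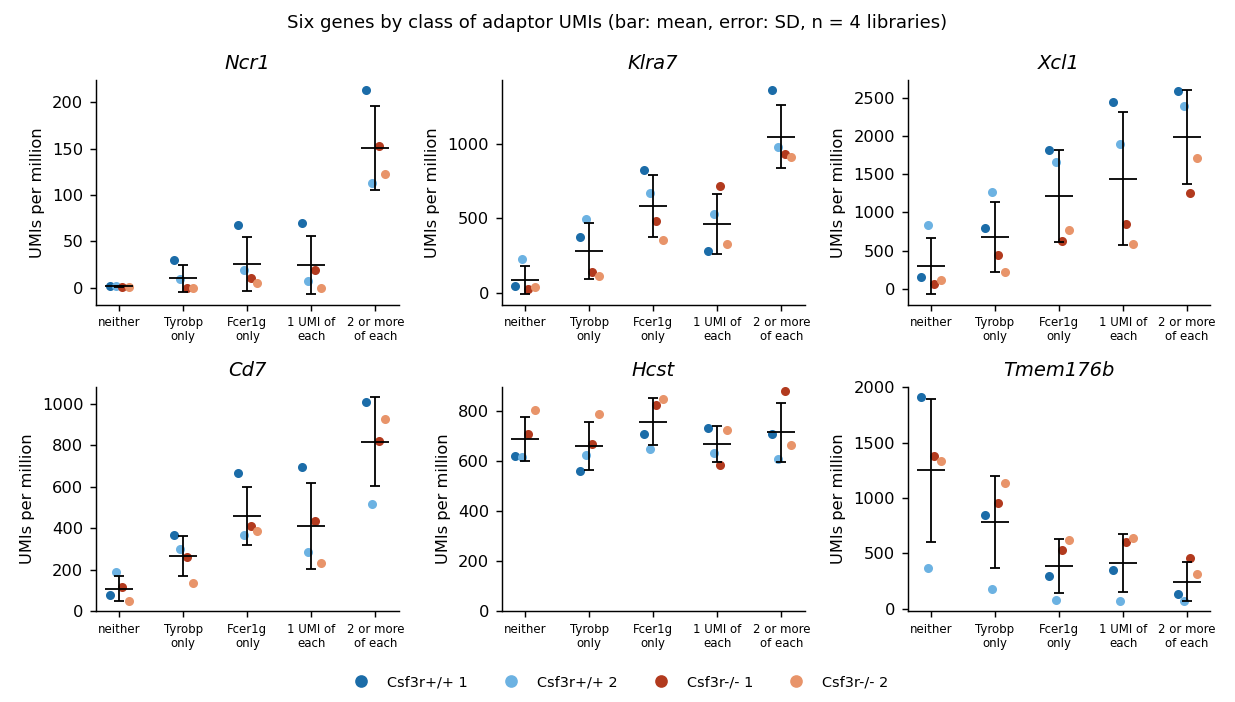
Level in CPM (y axis) of 6 genes in 5 classes of Cd3e+ cells (x axis), from cells with neither adaptor to cells with at least 2 UMIs of each; points are the 4 libraries, bars the mean and error bars the SD (n = 4). Ncr1 averages 1.21 CPM in cells with neither adaptor and 151 CPM in cells with at least 2 UMIs of each, whereas Hcst averages between 659.7 and 756 CPM in the 5 classes.

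Compared with the other Cd3e+ cells of the same library, the Tyrobp+ Fcer1g+ cells were rich in natural killer receptor genes and poor in genes of the IL-17 program, with no CD3 chain gene called in either direction. The comparison asked how the chosen cells differ from the remaining Cd3e+ cells. Those others were not held to the limits on macrophage genes and Gzmb. They thus include the 386 and 401 cells with both adaptors that these limits removed. Counts were summed per library and cell group and compared within libraries. Of 10164 genes tested, 213 were higher (2.10%) and 293 were lower (2.88%) at an adjusted p under 0.05 by edgeR's quasi-likelihood test (p-values adjusted by Benjamini-Hochberg), which also gave all fold changes, standard errors and adjusted p-values in what follows. The median log2 difference over all genes tested was -0.01. Without Csf3r+/+ library 2, 993 genes passed, 480 of them among the 506 that passed with all libraries, whereas 243 passed without Csf3r+/+ library 1, 167 without Csf3r-/- library 1 and 193 without Csf3r-/- library 2. Genes of a list are given by their counts beside these shares, and several lists were drawn up with earlier results of these data known.

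Genes of CD3 chains other than Cd3e, which the rule required, were read in both groups. Cd3d stood at 1444, 1056, 1312 and 1135 CPM in the chosen cells and 1155, 1030.0, 1153 and 1092 CPM in the others (log2 difference 0.25 ± 0.08, adjusted p = 0.123), and Cd3g at 2103, 1291, 2115 and 1839 and 2373, 1398, 2494 and 2338 CPM (-0.12 ± 0.07, adjusted p = 0.461). Cd247, the gene of the zeta chain, stood at 161, 145, 152 and 143 and 136, 146, 125 and 112 CPM. None of the 4 adaptor and CD3 genes tested passed in edgeR's quasi-likelihood test, with 2 at an unadjusted p under 0.05 and none called by DESeq2. After thinning to 1500 UMIs, a Cd3d UMI was read in 85.5% ± 3.20 (SD, n = 4) of the chosen cells and 78.9% ± 1.99 of the others, against 14.4% of 90 B cell barcodes of the same libraries (a UMI of Cd79a and of Ms4a1 and none of Cd3e; unthinned 97.9%, 89.7% and 12.4%). The median depth of B cell barcodes was 1668, 2515, 1451 and 1614.5 UMIs. Cd4 and Cd8a were nearly absent, with a UMI in 0.0800% and 0.113% of the thinned chosen cells. The constant-region genes of the T cell receptor were not analysed here.

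Ncr1, the gene of the activating receptor NKp46 (chr7:4337724-4345164, plus strand), had the largest increase among the genes named. It stood at 186, 69.3, 119.8 and 65.3 CPM in the chosen cells and 46.8, 13.1, 6.75 and 4.44 CPM in the others. All 4 values of the chosen cells lay above the highest of the others. The log2 difference was 2.94 ± 0.30 (adjusted p = 0.000540). A Ncr1 UMI was read in 13.1% ± 5.48 (SD, n = 4) of thinned chosen cells and 1.62% ± 1.73 of the others, against 1.11% of B cell barcodes (unthinned 21.0%, 2.19% and 0.621%), so most of the chosen cells showed none at this depth.

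Among 20 natural killer receptor genes tested, 13 were higher and 1 was lower, with a median log2 difference of 1.20. Klrb1c, the gene of the lectin-like receptor NK1.1, stood at 433, 269, 256 and 225 CPM against 171, 214, 44.4 and 38.9 CPM. Its lowest value in the chosen cells, in Csf3r-/- library 2, lay just above its highest in the others, in Csf3r+/+ library 2. The log2 difference was 1.70 ± 0.31 (adjusted p = 0.0102), and the call was lost without Csf3r-/- library 1 (edgeR adjusted p = 0.0775) or library 2 (edgeR adjusted p = 0.0594). Klrb1a, a related receptor gene, stood at 95.2, 55.3, 42.7 and 42.1 against 38.6, 14.0, 4.50 and 4.19 CPM (2.22 ± 0.28, adjusted p = 0.00152).

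Genes of the CD94 and NKG2 receptors were among the 13. Klrd1, the gene of CD94, which forms heterodimers with NKG2 chains, differed by 1.57 ± 0.25 (adjusted p = 0.00427), and its partner genes Klrc1 and Klrc2 by 1.57 ± 0.26 and 1.31 ± 0.32 (adjusted p = 0.00548 and 0.0381). Klrk1, the gene of NKG2D, stood at 1141, 1120.0, 892 and 920.3 CPM against 497, 1046, 328 and 481 CPM, a smaller difference of 1.01 ± 0.18 (adjusted p = 0.00928). In Csf3r+/+ library 2 the 2 groups were close, whereas in the other 3 libraries the chosen cells were well above. Klre1, whose product pairs with chains of the Klri family, stood at 552, 362, 395 and 341 CPM against 207, 229.7, 68.5 and 66.2 CPM (1.80 ± 0.26, adjusted p = 0.00245), with no overlap. Klrg1, an inhibitory receptor gene of mature killer cells, was the 1 gene of this list that was lower, at 0, 2.10, 0 and 4.21 CPM against 13.2, 7.85, 5.70 and 11.5 CPM (-2.41 ± 0.50, adjusted p = 0.0196), from 8 UMIs in the chosen cells.

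Cd244, the gene of the SLAM family receptor 2B4, and Cd160, the gene of a receptor for HVEM, belonged to the same group. Cd244 stood at 96.3, 66.5, 68.8 and 59.0 CPM in the chosen cells and 44.2, 19.0, 7.05 and 6.53 CPM in the others (2.17 ± 0.30, adjusted p = 0.00190). Cd160 stood at 723, 411, 454 and 329 and 264, 243, 83.5 and 52.1 CPM (1.88 ± 0.26, adjusted p = 0.00194). For both genes the chosen cells of each library lay above all 4 values of the others. Slamf7 and Crtam, the genes of 2 further activating receptors, differed by 0.96 ± 0.24 and 1.08 ± 0.18 (adjusted p = 0.0464 and 0.00559).

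The Ly49 genes, which encode receptors for MHC class I, are near-identical copies in the natural killer gene complex, so that reads could be split between them. Of 16 listed, 11 were in the matrices and 8 were tested, of which 4 were higher and none was lower, with a median log2 difference of 0.95. Klra7 (Ly49G; chr6:130218605-130233322, minus strand) stood at 1235, 909, 822 and 764 CPM against 356, 458, 112 and 109 CPM (2.20 ± 0.27, adjusted p = 0.00128). Klra6 stood at 272, 226, 155 and 198 against 67.4, 95, 20.5 and 23.2 CPM (2.32 ± 0.26, adjusted p = 0.000786), and Klra1 at 804, 519, 456 and 493 against 304, 259, 78.8 and 87.1 CPM (1.93 ± 0.23, adjusted p = 0.00124). These 3 genes did not overlap between the groups. Klra9, by contrast, stood at 132, 138, 106 and 120.0 against 137, 251, 50.6 and 79.1 CPM (0.18 ± 0.25, adjusted p = 0.846), overlapping fully. Klra4 and Klra8 were tested and did not pass. With all UMIs they were read in 2.49% and 1.58% of the chosen cells and 0.700% and 0.780% of the others. Among the Ly49 receptors of tumor UTCαβ the paper names inhibitory ones. Whether the receptors of the genes named here pair with DAP12 was not tested.

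Most of the chosen cells held a Ly49 transcript. With all UMIs, 94.2%, 93.6%, 94.2% and 83.7% of them held a UMI of any Klra gene. After thinning the share was 79.5% ± 6.91 (SD, n = 4), against 30.8% ± 21.4 of the other cells and 11.1% of B cell barcodes. The mean number of different Klra genes read in a thinned cell was 1.66, 1.56, 1.39 and 1.31 in the chosen cells. In Ly49-positive cells without Fcer1g, which had to hold at least 1 before thinning, it was 1.08, 1.22, 1.07 and 1.02. Over the natural killer gene complex (chr6:128609227-131247362), 13 of 26 genes tested were higher and none was lower, or 50.0% against 2.10% of all genes tested. All of the 13 but Clec2i were already counted in the natural killer receptor and Ly49 lists. The bounds of the region were set by Klrb1, Klrk1 and Klra genes, so this share is not separate from those counts.

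**Figure D3:**
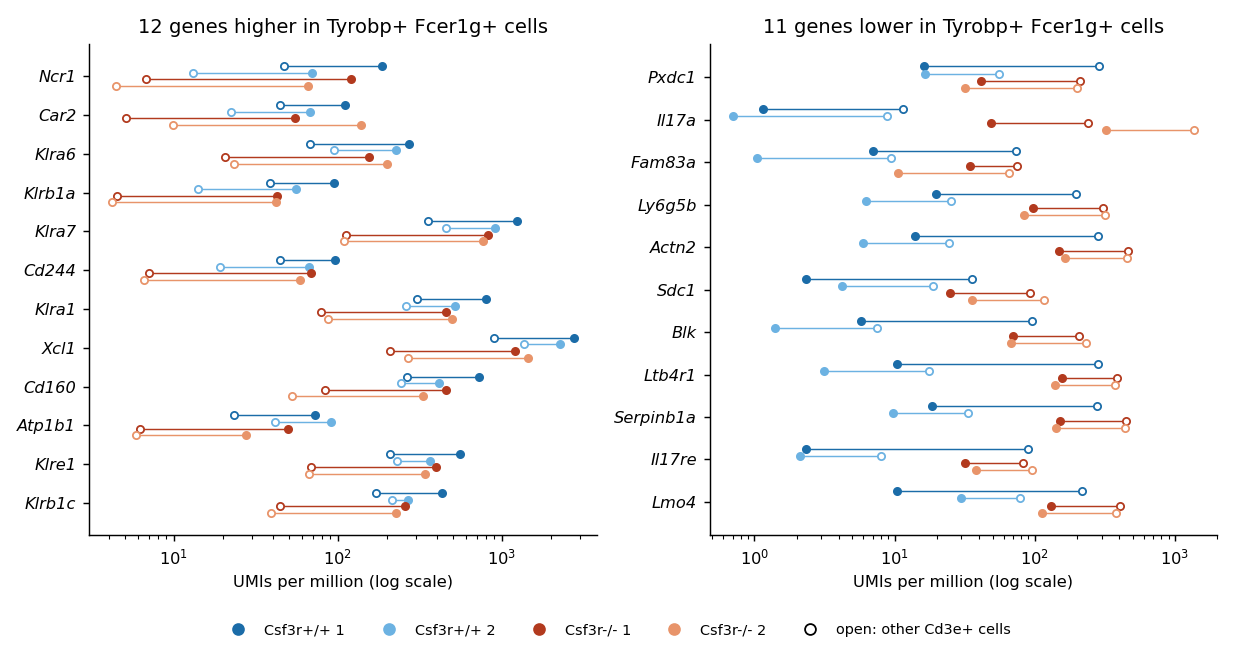
Level in CPM (x axis, log scale) of the 12 genes named as higher (left) and of 11 named as lower (right); for each library, in its own colour, a line joins the Tyrobp+ Fcer1g+ cells (filled) to the other Cd3e+ cells (open). In every library the filled points lie to the right for Ncr1 and the other genes of the left panel and to the left for Il17a and the other genes of the right panel.

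Among genes of signalling below the ITAM, 6 of 18 tested were higher and 2 were lower, with a median log2 difference of 0.29. The 6 include Sh2d1b1, which was named with results known. The pair of linker genes moved in opposite directions. Lat, the linker of the T cell receptor, stood at 229, 214, 453 and 389.6 CPM against 603, 326, 961 and 929 CPM (-0.98 ± 0.11, adjusted p = 0.000786), whereas Lat2, a related linker best known in B cells, mast cells and natural killer cells, stood at 91.7, 37.1, 56.9 and 56.9 against 40.2, 18.5, 17.5 and 27.4 CPM (1.31 ± 0.14, adjusted p = 0.000647). Within each library Lat was lower and Lat2 higher in the chosen cells. Txk, a Tec family kinase gene, differed by 0.87 ± 0.17 (adjusted p = 0.0153), and Lyn, a Src family kinase gene, by 1.23 ± 0.31 (adjusted p = 0.0472). Lck and Zap70, the kinase genes of the T cell receptor, did not pass, at 663, 606, 642 and 514 against 686, 629.6, 550.0 and 526 CPM and 179, 116, 183 and 149.5 against 220.2, 118, 213 and 225 CPM. Syk, whose kinase binds phosphorylated ITAMs, was near 0 in both groups, at 3.48, 1.40, 1.19 and 2.11 CPM in the chosen cells.

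Sh2d1b1, Cd7 and Car2 had been named as markers of these cells with results of the same data known, so they do not stand as independent support. Sh2d1b1, the gene of the SLAM adaptor EAT-2, stood at 34.8, 7.70, 15.4 and 12.6 CPM against 10.9, 1.72, 1.43 and 2.03 CPM, and its reads could be shared with its close copy Sh2d1b2. Cd7, the gene of a surface protein of T and natural killer cells, stood at 954, 446, 692 and 758 CPM against 471, 280.3, 193 and 135 CPM. Car2, the gene of carbonic anhydrase II, stood at 110.3, 67.2, 54.6 and 139 against 44.6, 22.2, 5.10 and 9.89 CPM. The groups overlapped for Cd7, where the chosen cells of Csf3r+/+ library 2 were below the other cells of Csf3r+/+ library 1, and for Sh2d1b1 between the same 2 libraries. The log2 differences were 2.38 ± 0.33, 1.58 ± 0.24 and 2.36 ± 0.36. A Sh2d1b1 UMI was read in 5.49%, a Cd7 UMI in 74.5% and a Car2 UMI in 15.1% of the chosen cells with all UMIs, against 0.621%, 4.35% and 3.11% of B cell barcodes.

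Effector genes differed in both directions. Xcl1, the gene of lymphotactin, which draws cross-presenting dendritic cells, stood at 2737, 2262, 1205 and 1438 CPM against 898, 1362, 208 and 268 CPM (1.92 ± 0.25, adjusted p = 0.00160). The lowest chosen value, in Csf3r-/- library 1, lay below the other cells of Csf3r+/+ library 2, but within each library the chosen cells were higher. Ccl5 stood at 7131, 8687, 7152 and 6861 against 4700.2, 6726, 1479 and 1511 CPM (1.45 ± 0.29, adjusted p = 0.0170), and Ccl3 differed by 0.84 ± 0.18 (adjusted p = 0.0226). Ifng stood at 266, 196, 91.3 and 158 against 181, 306, 46.7 and 74.1 CPM and did not pass (0.50 ± 0.24, adjusted p = 0.357). Of 17 cytokine and chemokine genes tested, Xcl1, Ccl5 and Ccl3 were the 3 that were higher, and 4 were lower, the chemokine genes Ccl1 and Cxcl10 among them.

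Of 17 genes of the cytotoxic granule tested, 6 were higher and 2 were lower, with a median log2 difference of 0.33. Gzmb was bounded by the rule in the chosen cells but not in the others, so the granule genes were compared under unequal limits. The part of this limit in the counts was not tested. Nkg7, a granule membrane protein gene, differed by 1.02 ± 0.20 (adjusted p = 0.0137), and Ctsw, a cathepsin gene of killer lymphocytes, by 1.27 ± 0.24 (adjusted p = 0.0112). Prf1, the gene of perforin, stood at 6.96, 7.70, 11.9 and 12.6 CPM against 9.03, 9.62, 5.78 and 5.58 CPM (0.26 ± 0.33, adjusted p = 0.817). Gzma was uneven, at 3.48, 23.8, 2.37 and 92.7 CPM against 36.9, 40.1, 15.4 and 21.5 CPM (-0.29 ± 0.54, adjusted p = 0.900), with its highest value in Csf3r-/- library 2. Gzmk, a granzyme gene of memory-like T cells, was lower, at 2.32, 0.700, 0 and 0 against 43.4, 6.13, 6.98 and 7.10 CPM (-3.89 ± 0.44, adjusted p = 0.000786), from 4 UMIs in the chosen cells.

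Among 25 transcription factor genes tested, 6 were higher and 8 were lower (median log2 difference -0.09). Eomes, a T-box factor gene of natural killer and memory T cells, stood at 22.1, 57.4, 23.7 and 33.7 CPM against 14.6, 34.7, 11 and 7.48 CPM (1.03 ± 0.22, adjusted p = 0.0209). Tbx21, the gene of T-bet, stood at 58.0, 55.3, 42.7 and 44.2 against 34.5, 52.9, 16.2 and 15.0 CPM and did not pass (0.79 ± 0.23, adjusted p = 0.0819). Ikzf2, the gene of Helios, which marks innate-like and regulatory T cells, was higher by 0.97 ± 0.12 (adjusted p = 0.00160). Zbtb16, the gene of PLZF, the factor of invariant natural killer T and MAIT cells, was lower, at 9.29, 4.90, 42.7 and 46.3 against 47.8, 12.5, 123 and 122 CPM (-1.48 ± 0.15, adjusted p = 0.000540). Within each library the chosen cells held less Zbtb16, although across libraries the values overlapped.

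Of 19 genes of the IL-17 program tested, 18 were lower and none was higher, with a median log2 difference of -1.84, against 2.88% of all genes that were lower. Il17a, the cytokine gene itself, stood at 1.16, 0.700, 48.6 and 322 CPM in the chosen cells and 11.5, 8.85, 238 and 1373 CPM in the others (-2.17 ± 0.16, adjusted p = 0.000163). In every library Il17a was lower in the chosen cells, and the libraries differed more than the cell groups did. Further genes that fell were Blk (-1.94 ± 0.25), Serpinb1a (-1.93 ± 0.26), Actn2 (-2.00 ± 0.30) and the leukotriene receptor gene Ltb4r1 (-1.94 ± 0.35). The IL-17C receptor gene Il17re, which is on the cytokine receptor list instead, fell as well (-1.90 ± 0.34) but did not pass in DESeq2 (adjusted p = 0.0746). Tmem176a and Tmem176b overlap on opposite strands and were counted as a pair of uncertain genes, at -1.86 ± 0.24 and -1.84 ± 0.24.

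Outside the lists, Pxdc1 was lower, at 16.2, 16.4, 41.5 and 31.6 CPM in the chosen cells against 285, 55.4, 209 and 201 CPM (-2.50 ± 0.25, adjusted p = 0.000508), with no overlap. Fam83a, Ly6g5b, Sdc1 (the gene of syndecan-1) and Lmo4 (a LIM domain factor gene) were lower by log2 differences of -2.03, -2.00, -1.99 and -1.88, each within every library. Atp1b1, the gene of the beta subunit of the sodium pump, was higher, at 72.0, 90.6, 49.8 and 27.4 against 23.1, 41.1, 6.23 and 5.84 CPM (1.81 ± 0.26, adjusted p = 0.00223).

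Genes of homing, growth and costimulation were mixed. Of 19 trafficking genes tested, 3 were higher, the integrin gene Itga4 among them (1.14 ± 0.11), and 4 were lower, among them Cxcr6 and Ccr2 (-1.64 ± 0.12 and -1.31 ± 0.18). Of 18 cytokine receptor genes tested, Il2rb, the chain shared by the IL-2 and IL-15 receptors, was the 1 that was higher (0.78 ± 0.16, adjusted p = 0.0177), and 6 were lower, Il7r among them (-1.11 ± 0.23, adjusted p = 0.0203). Of 18 inhibitory and costimulatory genes tested, 4 were higher and 5 were lower. Lag3 was among the former (1.14 ± 0.25, adjusted p = 0.0260) and Pdcd1, the gene of PD-1, among the latter (-1.37 ± 0.31, adjusted p = 0.0280). Of 16 genes of conventional T cells tested, 3 were higher and 4 were lower (median -0.28), with the factor gene Bcl11b, which keeps T cell identity, at 23.2, 31.5, 56.9 and 37.9 against 59.6, 50.9, 132 and 123 CPM (-1.05 ± 0.14, adjusted p = 0.00179). Of 19 genes known from innate-like T cells and intraepithelial lymphocytes, 9 were higher and 4 were lower (median 0.91). The 9 include Car2 and Cd7, which were named with results known. Itgax, the gene of CD11c, was one of them, at 8.12, 5.25, 4.75 and 12.6 against 1.67, 0.766, 0.450 and 1.90 CPM (2.80 ± 0.37, adjusted p = 0.00179). It is also on the list of dendritic cell markers, where 2 of 7 tested, Irf8 and Itgax, were higher and none was lower.

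**Figure D4:**
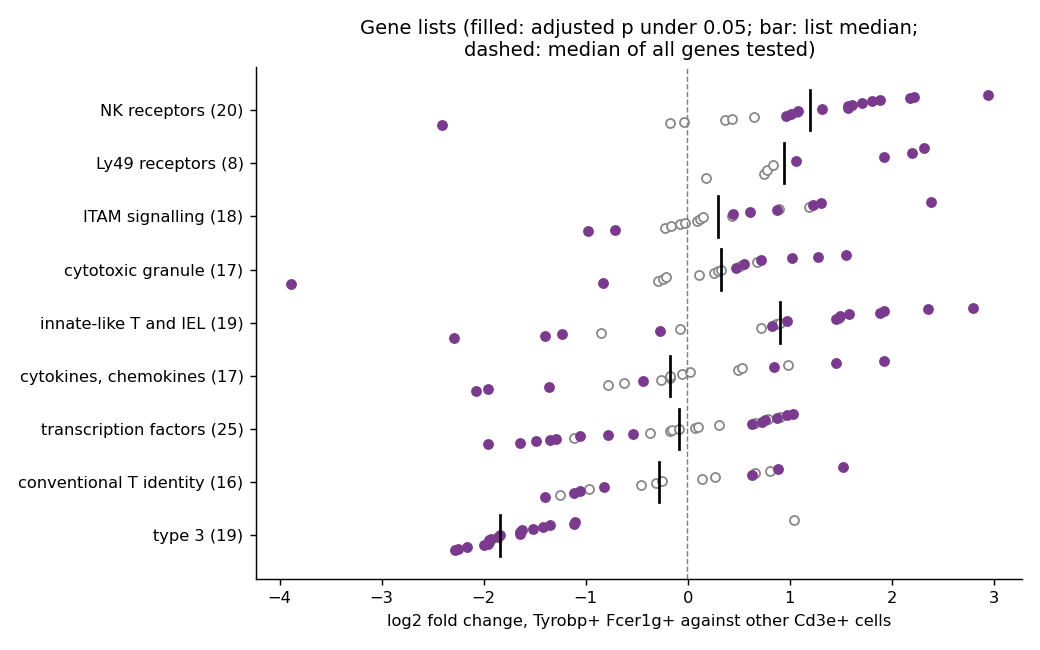
Log2 fold change (x axis) between Tyrobp+ Fcer1g+ cells and other Cd3e+ cells for each gene tested in 9 lists (y axis, number tested in brackets); filled points passed at an adjusted p under 0.05, black bars are list medians and the dashed line is the median of all genes tested (-0.01). The bar of the natural killer receptor list lies at 1.20 and that of the IL-17 (type 3) list at -1.84.

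Natural killer cell markers, several of them also on the receptor and factor lists, were compared as a list of their own. Of 10 tested, 6 were higher (Ncr1, Klre1, Klrb1c, Cd244, Eomes and Txk) and 1, Klrg1, was lower, and the 15 of the list in the matrices summed to 1540.2, 1135, 1135 and 1099 CPM in the chosen cells against 705, 812, 278 and 269 CPM in the others, with Klre1 the most abundant in the chosen cells. Khdc1a, Itgam and S1pr5 of the list had too few UMIs to be tested. Khdc1a was at 0 in the chosen cells and at 2.01, 0.287, 0.0751 and 0.0634 CPM in the others, Itgam stood at 0, 0.700, 1.19 and 2.11 CPM in the chosen cells and 0.223, 0.670, 0.150 and 3.11 CPM in the others, and S1pr5 at 0, 0.350, 0 and 2.11 CPM against 0.669, 0.191, 0.150 and 0 CPM. Cells bearing CD11b, the product of Itgam, had been depleted before the sort, so that its low level does not bear on whether the cells are like natural killer cells. The rule required a Cd3e UMI, so the CD3 transcripts do not bear on this either, and the cells are called here by the adaptors of the rule.

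The comparison most alike in kind was with 1833 Ly49-positive cells of the same libraries that held no Fcer1g UMI and met the same limits. It asked what sets the chosen cells apart from other Ly49-bearing T cells, and Klra genes were not tested since they chose the comparison cells. Of 6268 genes tested, 101 were higher (1.61%) and 122 were lower (1.95%), with a median over all genes of 0.00. Without Csf3r+/+ library 2, 111 genes passed, 101 of them among the 223 that passed with all libraries, and without Csf3r-/- library 2, 115 passed. DESeq2 called 67.

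Ncr1 had the largest difference among the genes named, at 186, 69.3, 119.8 and 65.3 CPM against 17.4, 3.84, 0 and 1.04 CPM (4.36 ± 0.25, adjusted p = 1.33e-10), and was nearly absent from the Ly49-positive cells without Fcer1g. Klrb1a stood at 95.2, 55.3, 42.7 and 42.1 against 6.96, 3.25, 0 and 3.12 CPM (4.13 ± 0.25, adjusted p = 3.09e-10), and Cd244 at 96.3, 66.5, 68.8 and 59.0 against 15.7, 10.6, 5.75 and 8.32 CPM (2.80 ± 0.18, adjusted p = 3.70e-10). None of these 3 genes overlapped. Of 17 natural killer receptor genes tested, 11 were higher and 1, Klri2, was lower (median 0.75). Klrb1f, another gene of the family, differed by 2.16 ± 0.19 (adjusted p = 1.05e-07).

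Xcl1 and the granzyme gene Gzmc were higher too. Xcl1 stood at 2737, 2262, 1205 and 1438 CPM against 804, 1099.5, 588 and 466 CPM (1.40 ± 0.10, adjusted p = 2.31e-09), without overlap. Gzmc stood at 97.5, 45.1, 23.7 and 223 against 26.1, 11.2, 12.9 and 14.6 CPM (2.49 ± 0.25, adjusted p = 9.19e-07), uneven between libraries. Car2 and Cd7, named with results known, differed by 4.03 ± 0.22 and 1.39 ± 0.12. Lat2, Atp1b1 and the scramblase gene Plscr1 were higher by 1.57 ± 0.17, 1.63 ± 0.16 and 1.66 ± 0.17.

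The Ly49-positive cells without Fcer1g held more of several other genes. Ifitm3, an antiviral membrane protein gene, stood at 26.7, 44.4, 34.4 and 63.2 CPM in the chosen cells against 285, 196, 105 and 81.1 CPM (-2.04 ± 0.21, adjusted p = 1.22e-06). It did not pass in DESeq2 (adjusted p = 0.117). Cd40lg, the helper signal gene, stood at 5.80, 11.5, 51.0 and 75.8 against 20.9, 42.8, 74.7 and 179 CPM (-1.25 ± 0.18, adjusted p = 9.89e-05), lower in the chosen cells of every library although the values overlapped. Pdcd1 and Cxcr6 differed by -1.17 ± 0.18 and -1.25 ± 0.13, and Ly6a, the gene of Sca-1, by -1.12 ± 0.13. Podnl1, Rcbtb2, Pxdc1 and Ly6g5b were lower by -1.37 ± 0.21, -1.19 ± 0.12, -1.46 ± 0.24 and -1.39 ± 0.19. Of 17 genes of the IL-17 program tested, 16 were lower and none was higher in edgeR's quasi-likelihood test (median -1.0), whereas DESeq2 called 5. Maf, Tmem176a and Tmem176b were among the 16, at -1.16 ± 0.18, -1.15 ± 0.16 and -1.17 ± 0.18. Of 14 genes of conventional T cells tested, 8 were lower and 1 was higher in edgeR's quasi-likelihood test (median -0.48), and DESeq2 called 2. In DESeq2 Pdcd1, Pxdc1, Maf, Tmem176a and Tmem176b did not pass (adjusted p from 0.0958 to 0.537).

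Of 6 dendritic cell markers tested against the same cells, 5 were higher and none was lower in edgeR's quasi-likelihood test, namely 4 genes of the MHC class II pathway (Cd74, H2-Aa, H2-Ab1 and H2-Eb1) and the factor gene Irf8, and DESeq2 called none of the 6. H2-Aa, an MHC class II chain gene, stood at 169, 96.9, 68.8 and 25.3 CPM against 0, 15.9, 44.5 and 21.8 CPM (2.23 ± 0.33, adjusted p = 0.000139), and its call was lost without Csf3r+/+ library 2 (edgeR adjusted p = 0.0958) and in DESeq2 (adjusted p = 1.0). The 15 genes of the list summed to 1673, 645, 688 and 489 CPM in the chosen cells, 266, 253, 603 and 509 CPM in the Ly49-positive cells without Fcer1g and 412, 781, 1014 and 1677 CPM in all other Cd3e+ cells. The sum of the chosen cells was highest in Csf3r+/+ library 1, and in Csf3r-/- library 2 it was below that of the Ly49-positive cells. The most abundant in the chosen cells was Cst3, and there Cd209a, Siglech and Fscn1 were at 0. The part of dendritic cell transcripts in these differences was not tested.

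Between genotypes, the chosen cells of Csf3r-/- tumors held more transcripts of the IL-17 program than those of Csf3r+/+ tumors, and none of their natural killer receptor genes passed. Of 6414 genes tested, 44 were higher in Csf3r-/- (0.686%) and 73 were lower (1.14%), with a median over all genes of 0.01. Without Csf3r+/+ library 2, none of 7035 genes passed in edgeR's quasi-likelihood test, where 741 had an unadjusted p under 0.05, so no call between genotypes held without that library, whereas 375 passed without Csf3r+/+ library 1. Leaving out either Csf3r+/+ library leaves a single library in that genotype. The spread then comes from the Csf3r-/- libraries alone, so calls lost in this way do not show that the differences were smaller. DESeq2 with all libraries called 109. Library 2 of Csf3r-/- gave 129 cells, the fewest.

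Il17a stood at 1.16 and 0.700 CPM in Csf3r+/+ and 48.6 and 322 CPM in Csf3r-/-, a log2 difference of 7.59 ± 1.13 (adjusted p = 0.0121). These levels came from 1, 2, 41 and 153 UMIs, and the ratio of the levels summed over the libraries of a genotype was 183 (exact 95% interval 61.5 to 893, counting error only). The genotypes did not overlap, and the 2 Csf3r-/- libraries differed widely. The other Cd3e+ cells of the same libraries stood at 11.5, 8.85, 238 and 1373 CPM, in the same order and higher. Ltb4r1, Blk, Nrp1 (the gene of neuropilin-1) and Actn2 were higher by 4.70 ± 0.43, 4.60 ± 0.52, 4.14 ± 0.43 and 4.11 ± 0.37 (adjusted p = 0.00321, 0.00483, 0.00342 and 0.00321). Of 16 genes of the IL-17 program tested, 12 were higher and none was lower (median 2.91). Zbtb16 and Maf were among the transcription factor genes that were higher, by 2.73 ± 0.44 and 2.29 ± 0.36, and Id3 and Klf2 were lower, by -2.19 ± 0.28 and -1.36 ± 0.27.

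The same transcripts were also read in barcodes of other cell types. Thinned to 1500 UMIs, the chosen cells carried 0.647, 0.381, 2.67 and 3.24 UMIs per cell of the same part of the IL-17 program genes as above. The other Cd3e+ cells carried 7.16, 1.43, 10.3 and 12.3. B cell barcodes of the same libraries carried 0.778, 0.382, 1.44 and 4.50, from 9, 34, 45 and 2 barcodes. Macrophage barcodes, with a UMI of C1qa and of C1qb and none of Cd3e, carried 0, 2.0, 3.7 and 4.21, from 3, 39, 10 and 76 barcodes. The chosen cells lay near or below B cell barcodes in every library but Csf3r-/- library 1, where they were above them, and below macrophage barcodes in every library but Csf3r+/+ library 1, where 3 barcodes were read. Of the chosen cells, 6.33%, 2.40%, 38.4% and 38.3% held 3 or more such UMIs. The part of such background transcripts in the difference between genotypes was not tested.

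**Figure D5:**
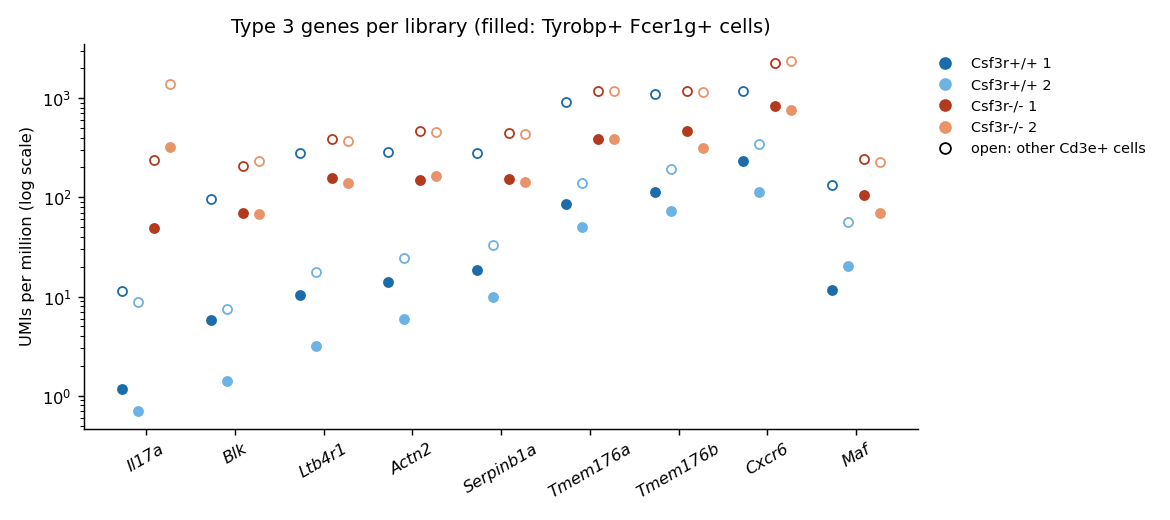
Level in CPM (y axis, log scale) of 9 genes of the IL-17 (type 3) program (x axis) in the Tyrobp+ Fcer1g+ cells (filled) and the other Cd3e+ cells (open) of each library, by colour. For Il17a the filled points run from 0.700 to 322 CPM, and for each of the 9 genes the filled point lies below the open point of the same library.

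None of 19 natural killer receptor genes passed between genotypes in edgeR's quasi-likelihood test, with 3 at an unadjusted p under 0.05, none called by DESeq2 and a median log2 difference of -0.44. None of 6 Ly49 genes passed, with 1 at an unadjusted p under 0.05, none called by DESeq2 and a median of -0.49. Ncr1 stood at 186, 69.3, 119.8 and 65.3 CPM (-0.44 ± 0.43, adjusted p = 0.933) and Klrc1 at 238, 331, 142 and 145 CPM (-1.05 ± 0.27, adjusted p = 0.130), the latter with no overlap between genotypes. Xcl1 stood at 2737, 2262, 1205 and 1438 CPM (-0.95 ± 0.25, adjusted p = 0.128), higher in both Csf3r+/+ libraries. With 2 libraries a genotype, a p that misses the threshold does not show that these levels were alike.

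The 5 genes named as lower in Csf3r-/- were read at like levels in the other cells. Hist1h2al, a histone gene, stood at 88.2, 35.7, 1.19 and 2.11 CPM in them and 75.7, 28.2, 1.58 and 1.78 CPM in the others (-5.23 ± 0.75, adjusted p = 0.0105; 178 UMIs in the chosen cells of Csf3r+/+ against 2 in those of Csf3r-/-, a ratio of levels of 31.5 with an exact 95% interval of 8.60 to 262), and Scand1 at 124, 174, 13.0 and 4.21 and 156, 179, 10.9 and 8.88 CPM (-4.04 ± 0.43, adjusted p = 0.00342). For all 5 genes, in both groups of cells, the Csf3r+/+ libraries were high and the Csf3r-/- libraries low. Asf1a, a histone chaperone gene, Sdhaf1, an assembly factor gene of succinate dehydrogenase, and Rpl21-ps4, a ribosomal pseudogene whose reads cannot be placed with certainty, were lower by -3.56 ± 0.54, -3.41 ± 0.46 and -3.92 ± 0.54.

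The difference between the chosen and the other cells was itself larger in Csf3r-/- for 12 of the 12 genes named as higher. The test was the interaction of cell group and genotype within libraries, positive where the chosen cells exceeded the others by more in Csf3r-/-. Of 10857 genes tested, 72 were positive (0.663%) and 4 were negative (0.0368%), with a median over all genes of 0.01. Without Csf3r+/+ library 2, 106 genes passed, 45 of them among the 76 that passed with all libraries, and without Csf3r+/+ library 1, 245 passed. DESeq2 called 32.

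Of 22 natural killer receptor genes tested for this difference, 10 were positive and none was negative (median 1.24), 12 did not pass, and DESeq2 called 7. Of 9 Ly49 genes 5 were positive, and DESeq2 called 5. Ncr1 (1.89 ± 0.24, adjusted p = 0.000117) and Car2 (2.23 ± 0.24) were among the 5 named, and in the other cells Ncr1 stood at 46.8, 13.1, 6.75 and 4.44 CPM. Ccl5 was positive too (1.79 ± 0.13, adjusted p = 1.89e-08). It stood at 7131, 8687, 7152 and 6861 CPM in the chosen cells and 4700.2, 6726, 1479 and 1511 CPM in the others. Ltb4r1 and Il17re were positive, with a smaller deficit in Csf3r-/- (2.58 ± 0.37 and 2.28 ± 0.54, adjusted p = 0.000426 and 0.0485), but neither passed without Csf3r+/+ library 1 or in DESeq2. Gzmc was positive as well (2.71 ± 0.33, adjusted p = 9.67e-05), with 97.5, 45.1, 23.7 and 223 CPM in the chosen and 173, 48.4, 11.3 and 33.0 CPM in the other cells, and did not pass without Csf3r-/- library 2 (edgeR adjusted p = 0.0605) or with at least 2 Cd3e UMIs a cell (edgeR adjusted p = 0.771). The limit on Gzmb held for the chosen cells only. It removed 164, 147, 61 and 29 cells with both adaptors, which stayed among the other cells, and the part of this limit in the Gzmc value was not tested. Cd83, an activation marker gene, was negative (-1.57 ± 0.27, adjusted p = 0.00268) and did not pass without Csf3r+/+ library 2.

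Markers of other cell types were summed in the same way. The 18 macrophage and monocyte markers outside the rule summed to 239, 190.3, 229 and 181 CPM against 261, 299.5, 345 and 584 CPM in the other cells, with Ctss, also expressed by lymphocytes, the most abundant and Adgre1 at 0. The other cells were not held to the macrophage limit of the rule, so these sums do not compare the groups on equal terms. Of the 12 neutrophil markers 6 were at 0, Csf3r and S100a9 among them, and the 12 summed to 10.4, 38.8, 20.2 and 6.32 CPM with G0s2 the most abundant. Of the 12 mast cell and basophil markers 7 were at 0, including Fcer1a and Ms4a2, whose products join the Fc receptor gamma chain in those cells, and the list summed to 9.29, 11.5, 5.93 and 10.5 CPM. The γδ T cell list, of which 4 of 11 genes were in the matrices, summed to 10.4, 3.15, 160.2 and 133 CPM, higher in Csf3r-/-, with 5830411N06Rik the most abundant. In the other cells the list summed to 144, 19.2, 392 and 394 CPM. Of 4 tested, none was higher in the chosen cells and 3 were lower, among them Blk, which is also on the IL-17 program list.

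B cell markers summed to 9.29, 22.4, 71.2 and 6.32 CPM, highest in Csf3r-/- library 1 as in the other cells (17.6, 24.2, 105 and 24.5 CPM), with Cd79b the most abundant and Blnk at 0. Fibroblast and sarcoma markers summed to 3.48, 1.75, 4.75 and 4.21 CPM with 7 of 12 at 0 (Timp2 the most abundant), erythroid and platelet markers to 26.7, 1.05, 1.19 and 2.11 CPM with 3 of 9 at 0 (Hbb-bs the most abundant), and type 2 innate lymphoid markers to 59.2, 64.0, 78.3 and 92.7 CPM with 3 of 8 at 0 (Gata3 the most abundant). The part of these cell types in the comparisons was not tested. When the chosen cells were limited to the 211 with no UMI of any macrophage, dendritic, neutrophil or B cell marker of these lists, 268 genes passed against the other cells, 218 of them among the 506.

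Genes of handling stress and of division were compared as well. The 13 stress genes summed to 10655, 9793, 5424 and 7114 CPM in the chosen cells and 8770.2, 10077, 4956 and 6394 CPM in the others, and 1 of 13 tested, Hspe1, was higher. These sums were higher in Csf3r+/+ than in Csf3r-/- in both groups of cells. Between genotypes in the chosen cells, 1 of 13 tested, Jun, was lower in Csf3r-/- in edgeR's quasi-likelihood test (median -0.78). Of the 13, 6 had an unadjusted p under 0.05 in that test, and DESeq2 called 3. The 15 cell cycle genes summed to 2545, 1392, 1458 and 1240.5 and 2598, 1337, 1510.3 and 1293 CPM, and none of 15 passed in edgeR's quasi-likelihood test, with 2 at an unadjusted p under 0.05 and none called by DESeq2.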

How the data were processed

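Single-cell libraries of 4 mice were prepared with the 10x 3′ v2 kit. The authors aligned and counted reads with Cell Ranger against mm10 and pooled the 2 libraries of each genotype into 1 matrix; whether depth was equalised is not given in the sources used here. The deposited values are raw UMI counts for 27998 genes and were used as deposited, with 0 columns of per-sample values left unused. The submitters' notes also name R 3.4.4 and Seurat 2.3.4. With the study's own limits of 200 to 3500 or 4000 genes, 15078 of 15137 Csf3r+/+ and 17303 of 17388 Csf3r-/- barcodes remained, and 9290 and 12041 of them held a Cd3e UMI, which the study also required; this is fewer cells than it kept, for a reason not given in the sources used here. The number after the barcode separated libraries but was tied to no sample record, and doublets were not removed.

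Counts were summed per library and cell group and tested with edgeR 4.0.16 (quasi-likelihood test, TMM, Benjamini-Hochberg adjustment) in R 4.3.3. The library was a block in comparisons between cell groups. Alternatives included DESeq2 1.42.0, size factors, no filter, leaving out libraries, stricter or wider cell limits and thinning to 1500 UMIs. Named genes were the rule's genes and label markers, and the 12 called genes that changed most in either direction (5 for genotypes) with at least 50 CPM in the higher group and, between cell groups, 1 direction in all 4 libraries, without Gm and Rik gene models. List members were named for level or change. Some genes that the rule names are not reported here. The cells, the gene lists and the tests were chosen with earlier results of these data known. The fits were tested on simulated data, in which the interaction test recovered the smallest share of the changed genes and had the largest share of false calls, above the threshold of 0.05, in both edgeR and DESeq2. Python 3.11.15, numpy 2.4.6, scipy 1.17.1, pandas 2.3.3 and matplotlib 3.10.9 were used for summaries. In the edgeR comparisons of cell groups and of the interaction, p-values measure the spread of differences within libraries. In the comparison of genotypes they measure the spread between libraries of the same genotype.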

Additional observations from a re-analysis of the deposited data

Results flagged for a closer look

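The distance between Tyrobp+ Fcer1g+ and other Cd3e+ cells differed between genotypes, by the interaction test (edgeR's quasi-likelihood test, p-values adjusted by Benjamini-Hochberg), for 18 genes named here. All values are log2 differences of differences, positive where the chosen cells exceeded the others by more in Csf3r-/-. Among genes of receptors they were 1.89 for Ncr1, 1.45 for Klra6, 1.65 for Klrb1a, 1.51 for Klra7, 1.78 for Cd244, 1.36 for Klra1, 1.49 for Cd160, 1.47 for Klre1 and 1.76 for Klrb1c. Xcl1 stood at 1.36, Car2 at 2.23, Atp1b1 at 1.47 and Gzmc at 2.71. Genes that were lower in the chosen cells showed 1.78 for Actn2, 1.86 for Blk, 2.58 for Ltb4r1 and 2.28 for Il17re, and none of these 4 passed in DESeq2. Cd83 was the 1 negative value, at -1.57, with 12.8, 154, 39.1 and 160.1 CPM in the chosen cells and 14.8, 73.6, 86.3 and 242 CPM in the others. The other Cd3e+ cells, a mixture not held to the limits on macrophage genes and Gzmb, enter each of these values, and their make-up differed between libraries. Its part in the values was not tested.

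Outside the cells compared, 605 barcodes met the rest of the rule but held no Cd3e UMI, 77, 379, 80 and 69 in the 4 libraries. They carried 461, 102, 111 and 225 CPM of Ncr1, highest in Csf3r+/+ library 1, and 1058, 1172, 1822 and 1077 CPM of Cd3g, the gene of another CD3 chain. Both transcripts were thus read in barcodes without Cd3e.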

How the results depend on the processing

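Among the named genes and the share, no value changed direction under the alternatives tried. The difference in share stayed between -9.38 and -2.70 percentage points under the other settings, and between -6.90 and -4.52 without each library. Against other Cd3e+ cells 506 genes passed, 834 without a filter, 822 against cells with neither adaptor, 268 for members without other types' markers, and 0 without the library block (edgeR, with 623 at an unadjusted p under 0.05, while DESeq2 with the block called 439). Without single libraries the count ran from 167 (without Csf3r-/- library 1) to 993 (without Csf3r+/+ library 2), with 243 without Csf3r+/+ library 1 and 193 without Csf3r-/- library 2. Between genotypes 117 passed, 346 without a filter and 56 after thinning, and from 0 (without Csf3r+/+ library 2) to 375 (without Csf3r+/+ library 1) without single libraries. The difference of differences gave 76 calls, 32 in DESeq2, 151 without a filter, and 70 to 245 without single libraries, the highest without Csf3r+/+ library 1. Against Ly49-positive cells 223 passed, 67 in DESeq2, 340 without a filter, 108 with at least 2 Cd3e UMIs, and 111 to 169 without single libraries, with 115 without Csf3r-/- library 2. Of values of named genes without single libraries, 94 of 96, 30 of 40, 20 of 24 and 95 of 96 kept their call in these 4 comparisons in turn, and under other settings 215 of 240, 56 of 57, 25 of 30 and 111 of 118 did.

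The 2 libraries of a genotype share only a number with those of the other. Deviations from the genotype mean correlated at r = 0.313 across 6418 genes, which are not independent replicates. With that number as a replicate block, 409 genes passed between genotypes. The difference in share was -3.60 points between the libraries numbered 1 and -7.82 points between those numbered 2. With 2 libraries a genotype and 129 to 627 chosen cells each, the calls on Il17a between genotypes and on Gzmk and Klrg1 between cell groups rest on few UMIs in 1 of the groups.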
